A study of Mus musculus with 18 samples.

Results

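The comparison described here is that of CD4 T cells labelled CD4Cre+ Maf fl/fl with cells labelled CD4Cre- Maf fl/fl, both cultured under the treatment called Tfh_A. It covers 6 of the 18 mouse libraries of the study, taken by their genotype and treatment labels as deposited: 3 labelled Cre+ (replicates 1, 3 and 6) and 3 labelled Cre- (replicates 2, 4 and 5). The other 12 libraries come from the treatments Tfh_1 and Tfh_5, with 3 libraries per genotype label in each. Every group carries the floxed Maf alleles, and the CD4Cre transgene is the labelled difference. Naive CD4 T cells had been kept for 3.5 days on plate-bound anti-CD3 and anti-CD28, sorted by flow cytometry, and read with a 3′ mRNA kit that sequences the polyadenylated end of each transcript, from 50 ng of RNA, per the labels. What the 3 treatments contain, which part of Maf is floxed, the age and sex of the mice and the sort gate are not given in the sources used here. Nothing there says that a replicate number stands for one animal, so each p-value below rests on sample-to-sample spread whose source, animals or handling, is unknown.

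Maf encodes c-Maf, a bZIP transcription factor that in CD4 T cells is known for driving Il21 and Il10 and for its part in follicular helper (Tfh), Th17 and regulatory T cells. CD4Cre is active from the thymic double-positive stage onward, so that floxed sequences are lost in both CD4 and CD8 T cells before they leave the thymus. Tfh cells help B cells in germinal centres, with Bcl6 as their master regulator and Cxcr5, Icos, Pdcd1 and Il21 among their hallmark genes, whereas Th17 cells make Il17a.

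Values are given as CPM, the rounded counts scaled to a common effective library size, in the order replicates 1, 3 and 6 for the label Cre+ and replicates 2, 4 and 5 for the label Cre-. Total counts ran from 6424874 to 9236153 in the 6 libraries. A pair of identifiers without a name in the reference table, 100861531 and 19791, took 46.2%, 36.1% and 27.4% of the counts in libraries labelled Cre+, against 33.7%, 19.7% and 21.9% in those labelled Cre-. These shares averaged 36.6% ± 9.38 and 25.1% ± 7.56 (SD, n = 3 each), and the groups overlapped (exact two-sided permutation p = 0.2, where 0.1 is the smallest possible). In edgeR's quasi-likelihood test without a filter on low counts, both identifiers were higher with the label Cre+. Their log2 fold changes there were 0.90 and 0.98 (edgeR adjusted p = 2.10e-10 each), whereas neither passed in the main fit. The 10 most abundant named genes took 11.3%, 10.3% and 10.9% with the label Cre+, against 10.2%, 9.71% and 9.96% with the label Cre-, without overlap (exact two-sided permutation p = 0.1). The part of these shares in the results below was not tested. Across the 11735 tested genes, pairs of libraries labelled Cre- correlated with Spearman coefficients of 0.911 to 0.926 and pairs labelled Cre+ with 0.859 to 0.890. Replicate 1 of the label Cre+ stood apart, with coefficients of 0.859 to 0.872 against each of the other 5 libraries and the largest share in the 2 unnamed identifiers, so that some list counts without it are given below. All 8 CD4 T cell markers on the list (Cd3d, Cd3e, Cd3g, Cd4, Cd5, Thy1, Cd28 and Lck) were detected in both groups, with a summed level of 1655 to 2084 CPM in libraries labelled Cre+ and 1651 to 1694 CPM in those labelled Cre-.

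Maf itself (mm10, chromosome 8, 115703253 to 115706894) was looked at first because it is the floxed gene. It had 22.8, 8.07 and 5.03 CPM in libraries labelled Cre+, against 0.270, 0 and 0 CPM in libraries labelled Cre-. The groups did not overlap, and the group that should carry the Cre recombinase held nearly all of the Maf RNA. Over each group 247 Maf counts stood against 2, a 141-fold higher level with the label Cre+ (counting interval 38.7 to 1175, counting error only). This level was low beside the other cultures: Maf averaged 221 ± 34.3 CPM in Tfh_1 and 349 ± 42.0 CPM in Tfh_5 with the label Cre+, and 0.676 ± 1.17 and 0 CPM with the label Cre- (SD, n = 3). In edgeR's quasi-likelihood test with Benjamini-Hochberg adjustment over all genes, the Tfh_A difference of Maf had an adjusted p of 0.110. DESeq2 gave it an adjusted p of 0.00609 and limma-voom one of 0.0410, within a range of 3.04e-35 to 0.430 over the 8 other ways of fitting the 18 or 6 libraries that were tried, the lowest of them without a filter on low counts. Because the Maf level runs against the labels, the groups are called by their labels throughout, and every direction below is one between labels that the floxed gene contradicts.

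**Figure D1:**
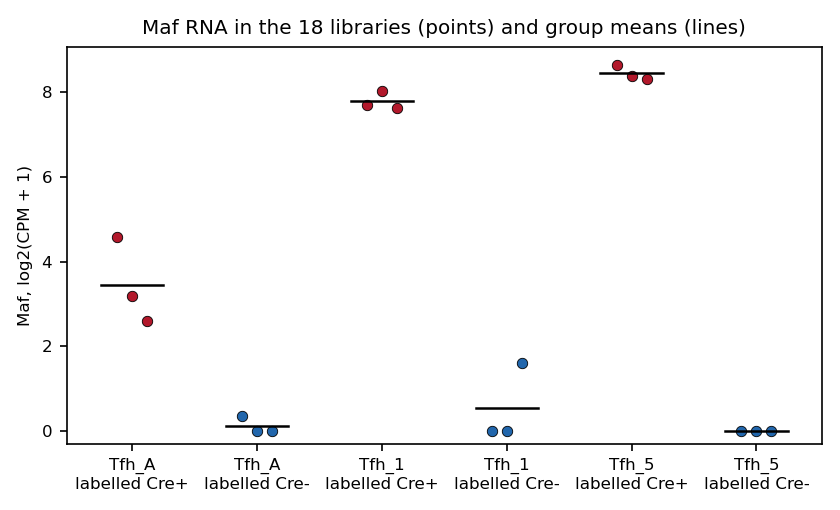
Maf RNA as log2(CPM + 1) (vertical axis) in the 18 libraries, by treatment and genotype label (horizontal axis); circles are libraries and lines are group means. In Tfh_A the 3 libraries labelled Cre+ lie above the 3 labelled Cre- and below all libraries labelled Cre+ of Tfh_1 and Tfh_5.

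Across all expressed genes, the comparison asked how far cells with the 2 genotype labels differ in Tfh_A culture. No gene passed edgeR's quasi-likelihood test at an adjusted p under 0.05 (0 of 11735, 0%), and the smallest adjusted p was 0.0715, for Aldoc. At an unadjusted p under 0.05 stood 606 genes (5.16%), of which 345 were higher (2.94%) and 261 lower (2.22%) with the label Cre+. These counts depended on single libraries. Without replicate 1 of the label Cre+ they were 198 higher and 201 lower of 12366 tested genes. Without replicate 5 of the label Cre- they were 186 higher and 169 lower of 12311. The 3 libraries of each label did not overlap in 1522 genes (13%), higher in 722 (6.15%) and lower in 800 (6.82%). DESeq2 called 18 genes (0.153%) and limma-voom 6 (0.0511%) at an adjusted p under 0.05, and Maf, Aldoc and A930005H10Rik were called by both. The same edgeR test called 100 genes (0.852%) in Tfh_1, 60 higher (0.511%) and 40 lower (0.341%), and 380 (3.24%) in Tfh_5, 140 higher (1.19%) and 240 lower (2.05%).

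The data bound the size of the difference well only for abundant genes. Of the 1170 genes that averaged at least 100 CPM in either group, 961 (82.1%) had a 95% interval that lay within a 2-fold change in either direction, and their median SE was 0.24 on the log2 scale. Among the 4755 genes under 10 CPM in both groups the median SE was 2.05, and an interval at that SE spans a change of several fold in either direction. The parts of depth and of spread between libraries in this were not separated. The median log2 fold change over all tested genes was 0.

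**Figure D2:**
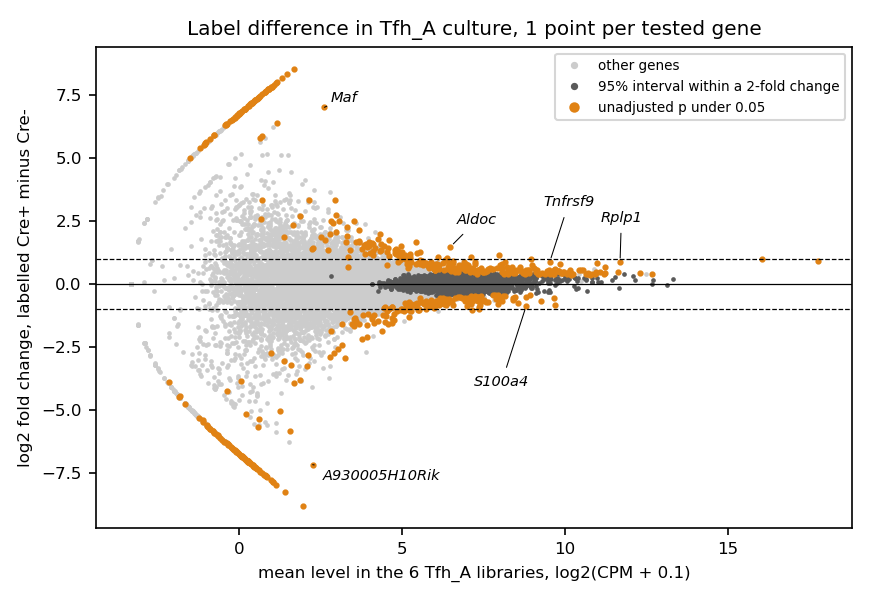
Log2 fold change, labelled Cre+ minus Cre- (vertical axis), against the mean level of the 6 Tfh_A libraries as log2(CPM + 0.1) (horizontal axis), 1 point per tested gene; dashed lines mark a 2-fold change. None of the 11735 genes passed the adjusted threshold; the curved edges are genes with 0 counts in 1 group, whose fitted value depends on the fit's prior count.

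Aldoc, which encodes aldolase C, an enzyme that splits fructose 1,6-bisphosphate in glycolysis, led the list. It had 141, 116 and 137 CPM in libraries labelled Cre+, against 53.7, 49.5 and 39.0 CPM in those labelled Cre-. The groups did not overlap, and the gap between them was wider than the range within either. The log2 fold change was 1.47 ± 0.28 (SE, worked back from the test; edgeR adjusted p = 0.0715), and it lay between 1.35 and 1.56 when each library was left out in turn. DESeq2 gave an adjusted p of 0.000962 and limma-voom 0.0283, within a range of 0.000962 to 0.105 over the 8 alternatives. In Tfh_1 Aldoc averaged 192 ± 4.32 CPM with the label Cre+ and 101 ± 22.4 with the label Cre-, whereas in Tfh_5 it averaged 58.9 ± 25.8 and 64.6 ± 10.6 CPM (SD, n = 3 each). The label difference in Tfh_A exceeded that in Tfh_5 by 1.6 ± 0.39 on the log2 scale (edgeR adjusted p = 0.0241), and the contrast with Tfh_1 did not pass (0.54 ± 0.38, edgeR adjusted p = 0.898).

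The sequence upstream of Aldoc is shown because Aldoc and other genes of glycolysis and of the hypoxia response are known targets of HIF-1, which binds a short core, ACGTG or GCGTG. The window runs from 250 bases before to 30 after the first of 2 RefSeq start sites (GRCm38.p6, credited to RefSeq), with core letters on either strand in capitals:
Aldoc, chr11:78322823-78323102, + strand: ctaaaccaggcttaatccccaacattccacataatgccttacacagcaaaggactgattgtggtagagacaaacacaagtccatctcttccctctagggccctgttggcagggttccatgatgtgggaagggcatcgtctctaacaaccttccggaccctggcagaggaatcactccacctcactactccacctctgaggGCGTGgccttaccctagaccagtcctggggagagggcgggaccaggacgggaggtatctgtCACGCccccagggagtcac
It holds 2 core matches, 1 on each strand. Of 32851 windows of the same length from 27025 genes, 41.8% hold at least 1 such core and 19.2% at least 2, so these letters are common, and a match describes the sequence and does not show a bound site.

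Other glycolytic genes mostly lay on the same side as Aldoc, by less. Of 20 tested members of the list, 4 were higher and 1 lower at an unadjusted p under 0.05 (background 2.94% and 2.22%), 8 did not overlap between the labels, all of them higher (background 6.15%), and the median log2 fold change was 0.20 beside 0 over all genes. Gpi1, the glucose-6-phosphate isomerase, had 486, 456 and 381 CPM with the label Cre+, against 299, 287 and 313 CPM with the label Cre-, a log2 fold change of 0.56 ± 0.20 (edgeR adjusted p = 0.758). Gapdh, which oxidises glyceraldehyde 3-phosphate, had 282, 256 and 268 CPM against 194, 160.2 and 178 CPM for the same order of labels (0.60 ± 0.26, edgeR adjusted p = 0.937). The labels did not overlap for either gene, and for Gapdh the gap between them was wider than the range within either. Slc2a3, the glucose transporter GLUT3, averaged 186 ± 34.4 CPM with the label Cre+ and 88.3 ± 34.3 CPM with the label Cre- (SD, n = 3 each). Pfkl, the liver-type phosphofructokinase subunit, was the member on the lower side, with 68.4 ± 22.8 CPM against 105 ± 20.4 CPM with the label Cre- and overlapping libraries. Slc2a3 and Pfkl lie outside the naming rule and, like Vegfa and Egln1 below, were named after their values were seen. Without replicate 1 of the label Cre+ the list had 2 of 21 members higher and none lower at that unadjusted p, with a median of 0.21.

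In the hypoxia list, 11 of 12 tested members had a log2 fold change above 0 (49.4% of all tested genes did), with a median of 0.36. Of the 12, 1 passed an unadjusted p of 0.05 on the higher side (background 2.94%). That member was Egln3, a prolyl hydroxylase that marks HIF for degradation and is itself induced by HIF. It had 324, 272 and 347 CPM in libraries labelled Cre+, against 214, 207 and 187 CPM in those labelled Cre- (log2 fold change 0.63 ± 0.23, edgeR adjusted p = 0.741). Ndrg1, a stress-responsive gene of the same list, had 145, 140.0 and 138 CPM with the label Cre+ and 99.5, 90.1 and 96.0 CPM with the label Cre-, with a gap far wider than the spread in either group and still an edgeR adjusted p of 0.960. Hif1a, the oxygen-regulated subunit itself, had 309, 314 and 295 CPM with the label Cre+, against 289, 228 and 182 CPM with the label Cre-. Egln2, another HIF prolyl hydroxylase and no member of the list, had 81.8, 65.6 and 51.5 CPM in libraries labelled Cre+, against 31.7, 29.1 and 22.3 CPM with the label Cre- (1.26 ± 0.35, edgeR adjusted p = 0.505). Vegfa averaged 12.9 and 6.71 CPM for the labels Cre+ and Cre- with an SE of 1.09, and Egln1 averaged 91.1 and 92.8 CPM, a difference of -0.025 ± 0.32. The hypoxia median stayed above 0 without any 1 library, between 0.27 and 0.49.

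The metallothioneins Mt1 and Mt2 bind zinc and copper, and the transcription factor MTF-1 is known to induce both through metal response elements. Mt1 had 734, 589 and 566 CPM in libraries labelled Cre+, against 526, 286 and 323 CPM in those labelled Cre-. Mt2 had 337, 342 and 356 CPM with the label Cre+, against 236, 114 and 121 CPM with the label Cre-. In both genes the libraries did not overlap, and replicate 2 was the highest of the label Cre- and closest to the other label. The log2 fold changes were 0.74 ± 0.19 for Mt1 (edgeR adjusted p = 0.330) and 1.14 ± 0.34 for Mt2 (edgeR adjusted p = 0.704). Mt1 was called by DESeq2 (adjusted p = 0.0476, range 0.0476 to 0.483 over the alternatives) and Mt2 by limma-voom (adjusted p = 0.0283, range 0.00118 to 0.720). Without replicate 2 of the label Cre-, Mt1 passed edgeR's test with a log2 fold change of 1.05 (adjusted p = 0.0373). In Tfh_1 both genes averaged lower with the label Cre+ without passing the threshold. Mt1 had 719 ± 25.1 CPM against 938 ± 107 CPM with the label Cre- (SD, n = 3 each, edgeR adjusted p = 0.479). Mt2 had 412 ± 73 CPM against 534 ± 111 CPM with the label Cre- (SD, n = 3 each, edgeR adjusted p = 0.824). In Tfh_5 both passed on the lower side: Mt1 averaged 126 ± 8.84 CPM with the label Cre+ and 565 ± 84.2 CPM with the label Cre-, and Mt2 79.2 ± 51.2 and 371 ± 47.5 CPM (SD, n = 3 each). The label difference in Tfh_A exceeded that in Tfh_5 by 2.89 ± 0.28 for Mt1 (edgeR adjusted p = 1.72e-08) and 3.36 ± 0.49 for Mt2 (edgeR adjusted p = 0.000623).

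Mt1 and Mt2 are neighbours on chromosome 8, and their upstream windows, cut as for Aldoc, are shown because both genes lay on the same side and share a known element. Capitals mark the metal response core TGCACNC or TGCGCNC on either strand, where N is any base:
Mt1, chr8:94178839-94179118, + strand: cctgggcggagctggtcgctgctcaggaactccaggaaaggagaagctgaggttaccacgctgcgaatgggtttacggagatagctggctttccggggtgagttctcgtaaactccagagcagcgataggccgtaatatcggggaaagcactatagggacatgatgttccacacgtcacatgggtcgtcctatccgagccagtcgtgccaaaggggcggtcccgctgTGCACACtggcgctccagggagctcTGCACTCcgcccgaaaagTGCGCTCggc
Mt2, chr8:94172368-94172647, + strand: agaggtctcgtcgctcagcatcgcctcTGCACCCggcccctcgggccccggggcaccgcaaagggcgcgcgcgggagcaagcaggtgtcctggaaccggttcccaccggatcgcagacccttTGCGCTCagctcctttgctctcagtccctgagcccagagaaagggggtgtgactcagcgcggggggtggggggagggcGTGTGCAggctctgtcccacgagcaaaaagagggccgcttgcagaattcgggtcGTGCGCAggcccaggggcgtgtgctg
Mt1 holds 3 matches, all on the strand shown, and Mt2 holds 4, 2 on each strand. Some of these matches lie past the start site in both genes. Of all 32851 windows, 24.1% hold at least 1 such core and 1.73% at least 3. Both genes were shown for this known element, so these shares are no test of it. As for Aldoc, a match describes the sequence and does not show a bound site.

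Among costimulatory receptors, Tnfrsf9 (4-1BB), a receptor of activated T cells whose ligand is carried by antigen-presenting cells, had the smallest p. It had 1224, 828 and 815 CPM in libraries labelled Cre+, against 624, 436 and 505 CPM in those labelled Cre-. The groups did not overlap, and replicate 1 was the highest of its label. The log2 fold change was 0.87 ± 0.22 (edgeR adjusted p = 0.229), called by limma-voom (adjusted p = 0.0283, range 0.0283 to 0.430 over the alternatives), and it stayed positive without any 1 library, at 0.65 to 1.02. Tnfrsf25 (DR3), the receptor of TL1A, had 58.3, 29.2 and 30.4 CPM with the label Cre+ and 18.8, 16.7 and 16 CPM with the label Cre- (1.19 ± 0.39, edgeR adjusted p = 0.741). Cd2, an adhesion receptor that lowers the threshold of T cell activation, had 612, 512 and 554 CPM against 396, 364 and 389 CPM with the label Cre- (0.55 ± 0.18, edgeR adjusted p = 0.741). Tnfrsf18 (GITR), with 488 ± 101 CPM against 356 ± 69 CPM with the label Cre- (SD, n = 3 each), completed the 4 of 18 tested members at an unadjusted p under 0.05, all higher, beside a background of 2.94%. Icos, a hallmark of Tfh cells in the same list, averaged 285 ± 33.0 and 245 ± 54.3 CPM, and its groups overlapped (0.22 ± 0.24). Without replicate 1 of the label Cre+, 2 of 19 tested members reached that unadjusted p. The list's median of 0.24 was 0.13 without replicate 6 of that label and 0.40 without replicate 2 of the label Cre-.

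Other surface molecules were placed likewise without passing the adjusted threshold. Cd101, an inhibitory immunoglobulin-like receptor, had 19.2, 5.14 and 8.62 CPM with the label Cre+, against 1.21, 2.76 and 4.10 CPM with the label Cre- (1.97 ± 0.41, edgeR adjusted p = 0.0960). DESeq2 called it with an adjusted p of 0.0127, within a range of 0.000353 to 0.793 over the alternatives. Vsir (VISTA), an inhibitory receptor, was the 1 of 8 tested coinhibitory genes at an unadjusted p under 0.05 (background 2.94% higher). It had 161, 113 and 99.0 CPM in libraries labelled Cre+ and 76.3, 76 and 45.7 CPM in those labelled Cre- (0.91 ± 0.32, edgeR adjusted p = 0.741). None of the 8 reached that unadjusted p without replicate 1 of the label Cre+ or without replicate 5 of the label Cre-. Itgb7, the β7 integrin chain used for homing to the gut, averaged 136 ± 25.4 CPM against 80.6 ± 3.26 CPM with the label Cre-, and its libraries did not overlap. Prnp, the prion protein gene, had 38.9, 25.6 and 13.2 CPM with the label Cre+ and 12.8, 7.87 and 7.89 CPM with the label Cre- (1.44 ± 0.32, edgeR adjusted p = 0.0960; called by DESeq2), and it passed the same edgeR test on the higher side in Tfh_1 (1.27 ± 0.31, adjusted p = 0.0292) and Tfh_5 (1.28 ± 0.31, adjusted p = 0.0112). Zap70, the kinase recruited to the T cell receptor, averaged 112 ± 24.4 CPM with the label Cre+ and 65.7 ± 9.62 CPM with the label Cre- (0.78 ± 0.25, edgeR adjusted p = 0.705) and also passed in Tfh_1 and Tfh_5 (1.15 and 1.69).

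**Figure D3:**
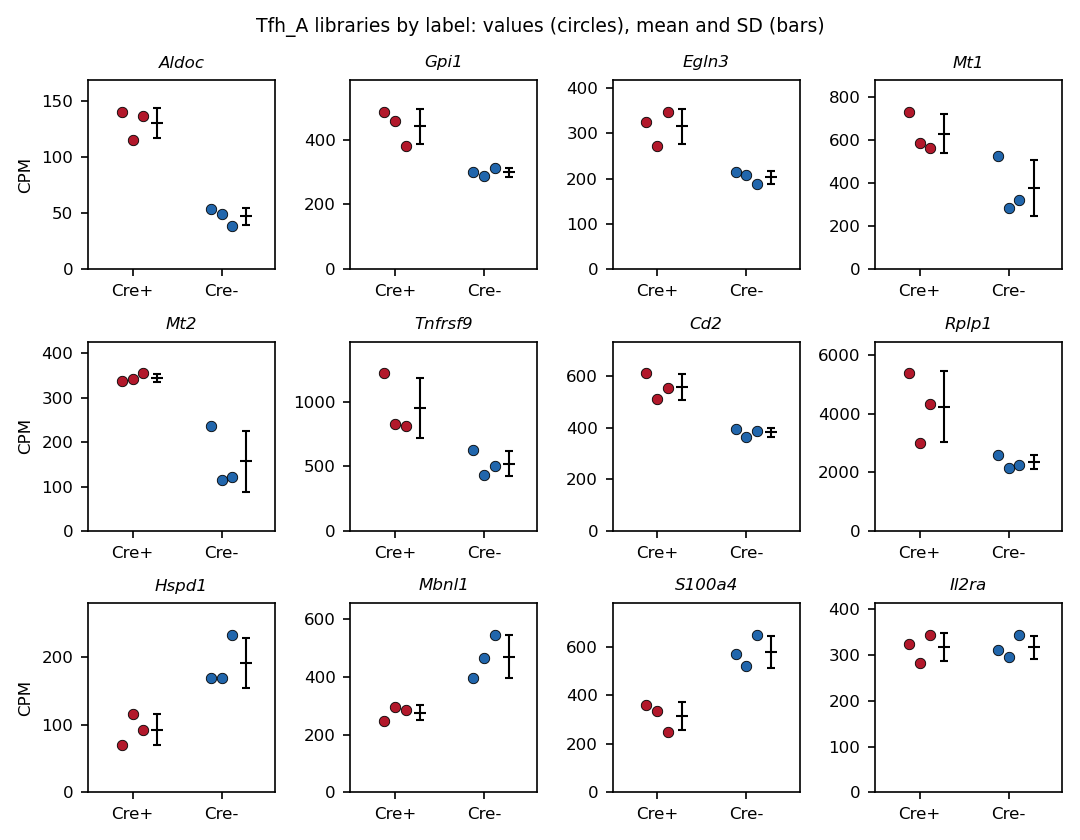
CPM (vertical axes, from 0) in the 3 Tfh_A libraries labelled Cre+ and the 3 labelled Cre- for 12 genes; circles are libraries and bars show the mean and SD. Libraries do not overlap for 11 of the genes, and Il2ra is level at a mean of 317 CPM in both groups. The 12 were picked from the named genes, many of which were named for a small p or no overlap here. The 11 thus describes the choice, and over all tested genes 13% do not overlap.

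Genes of the ribosome lay on the higher side together. Of 23 tested ribosomal protein genes 22 had a log2 fold change above 0, 9 were higher and none lower at an unadjusted p under 0.05 (background 2.94% higher), and the median was 0.26. The median of the same list was 0.35 in Tfh_1 and 0.0095 in Tfh_5. Rplp1, a protein of the ribosomal stalk, had 5379, 2995 and 4338 CPM in libraries labelled Cre+, against 2601, 2155 and 2262 CPM in those labelled Cre- (0.86 ± 0.19, edgeR adjusted p = 0.0960). Rps14, of the small subunit, averaged 2582 ± 792 CPM with the label Cre+ and 1458 ± 161 CPM with the label Cre- (0.82 ± 0.20, edgeR adjusted p = 0.229). 2410006H16Rik, a noncoding transcript that is no member of the list, had 955, 464 and 549 CPM against 366, 347 and 269 CPM with the label Cre- (1.0 ± 0.21, edgeR adjusted p = 0.0960). DESeq2 called these 3 genes, with adjusted p-values of 0.0127 for Rplp1 (range over the alternatives 0.000961 to 0.430), 0.0476 for Rps14 (0.00247 to 0.470) and 0.00677 for 2410006H16Rik (0.00168 to 0.430). For each of them the highest library was replicate 1 of the label Cre+, and without that library 5 of the 23 ribosomal genes had an unadjusted p under 0.05, all higher, with a median of 0.20. Without replicate 5 of the label Cre- the number was also 5. Close copies of ribosomal protein genes exist in the genome and some reads were counted in parts, so levels of single members are uncertain. Among genes with at least 10 CPM, the 1876 with the shortest transcripts held 106 higher and 47 lower at that unadjusted p, and the 1456 with the longest 22 and 33. With each library's trend on transcript length taken out, an alternative chosen after seeing the data, the ribosomal median was 0.27.

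Among the genes with the smallest p on the lower side, Mbnl1, a splicing regulator, had 246, 295 and 286 CPM with the label Cre+ and 398, 467 and 548 CPM with the label Cre- (-0.77 ± 0.19, edgeR adjusted p = 0.214; DESeq2 adjusted p = 0.0396, range 0.0396 to 0.430). The groups did not overlap. Hspd1, the mitochondrial chaperonin HSP60, averaged 92.4 ± 22.8 CPM with the label Cre+ and 190.2 ± 36.8 CPM with the label Cre- (SD, n = 3 each), a difference of -1.04 ± 0.25 (edgeR adjusted p = 0.208; DESeq2 adjusted p = 0.0476, range 0.0476 to 0.430). The same placement held for Psmd1, a proteasome subunit (-1.0 ± 0.24), Nop58, a core protein of box C/D snoRNPs (-0.94 ± 0.23), Tardbp, the RNA-binding protein TDP-43 (-0.87 ± 0.26), and Dek, a chromatin protein (-0.79 ± 0.23), with edgeR adjusted p-values of 0.208 to 0.582. Hspd1, Nop58 and Dek also passed on the lower side in Tfh_5, where their log2 fold changes were -1.15, -0.84 and -0.96. Araf, a RAF kinase, had 7.12, 10.7 and 8.38 CPM in libraries labelled Cre+, against 40.5, 22.1 and 35.2 CPM with the label Cre- (-1.89 ± 0.53, edgeR adjusted p = 0.472).

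Proliferation genes mostly averaged lower with the label Cre+, by a small amount. Of 44 tested members 37 had a log2 fold change below 0, with a median of -0.30, and 8 did not overlap on the lower side (background 6.82%), against 0 on the higher side. At an unadjusted p under 0.05 stood Mcm3, of the replicative helicase, and Birc5, which encodes survivin, both lower and together 2 of 44 beside a background of 2.22%. Mcm3 had 243, 205 and 182 CPM with the label Cre+, against 246, 263 and 342 CPM with the label Cre-, and Birc5 had 188, 219 and 187 CPM against 281, 256 and 301 CPM. Mki67, the widely used marker of cycling cells, averaged 59.0 ± 14.9 CPM with the label Cre+ and 91.7 ± 18.6 CPM with the label Cre- (SD, n = 3 each), and its groups overlapped. The proliferation median was also below 0 in Tfh_1 (-0.52) and Tfh_5 (-0.58). Without replicate 1 of the label Cre+ the median in Tfh_A was -0.18, the smallest of the 6 fits without 1 library. In the cholesterol synthesis list 16 of 24 tested members were below 0, with a median of -0.36 and none at an unadjusted p under 0.05. Hmgcs1, which makes HMG-CoA, averaged 184 ± 21.4 CPM against 243 ± 24.0 CPM with the label Cre- without overlap, whereas Fdps, farther down the pathway, averaged 179.9 ± 28.9 and 139.8 ± 26.5 CPM for the labels Cre+ and Cre- (SD, n = 3 each).

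**Figure D4:**
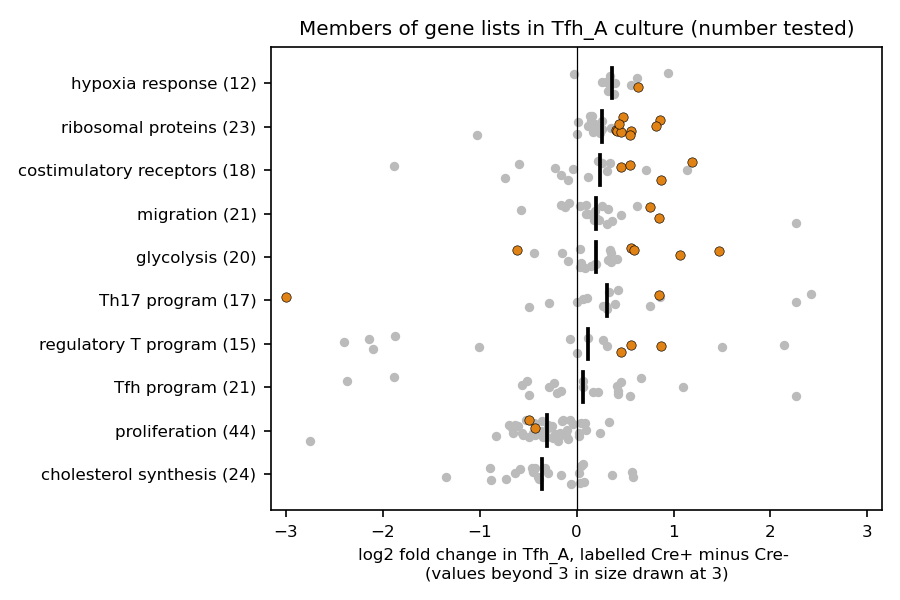
Log2 fold change in Tfh_A, labelled Cre+ minus Cre- (horizontal axis), of the tested members of 10 gene lists (vertical axis, number tested in brackets); orange points have an unadjusted p under 0.05, black lines are medians and points past 3 log2 units are drawn at 3. Medians run from 0.36 in the hypoxia list to -0.36 in the cholesterol list, and no point passes the adjusted threshold.

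S100a4, a calcium-binding protein of motile and memory T cells, had 360.2, 333 and 250.1 CPM in libraries labelled Cre+, against 569, 519 and 649.8 CPM in those labelled Cre-. The groups did not overlap, and the gap between them was wider than the range within either. The log2 fold change of -0.88 ± 0.24 had an edgeR adjusted p of 0.383 and was called by limma-voom (adjusted p = 0.0283, range 0.0283 to 0.465 over the alternatives). The difference was larger in the other cultures, with S100a4 at 17.5 ± 6.75 CPM against 133 ± 36.9 CPM with the label Cre- in Tfh_1 and 47.8 ± 8.20 against 373 ± 58.4 CPM in Tfh_5. The tests of the difference between cultures passed for both pairs (2.04 ± 0.34 with edgeR adjusted p = 0.00129, and 2.08 ± 0.34 with edgeR adjusted p = 0.000252, Tfh_A minus the other). S100a6, its neighbour in the S100 gene cluster, had 1265, 1317 and 1019 CPM with the label Cre+, against 1450.0, 1293 and 1397 CPM with the label Cre-. Its groups overlapped in Tfh_A (-0.20 ± 0.19), whereas it was lower by 1.91 and 2.73 on the log2 scale with the label Cre+ in Tfh_1 and Tfh_5.

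Several scarce transcripts were present with 1 label and at or near 0 with the other. A930005H10Rik, a noncoding RNA, had 0.183, 0 and 0 CPM in libraries labelled Cre+, against 13.1, 5.62 and 9.19 CPM in those labelled Cre-. That is 1 count against 244, a 213-fold lower level with the label Cre+ (counting interval 37.9 to 8448), with an edgeR adjusted p of 0.0960 and a DESeq2 adjusted p of 0.000962 (range 0.000962 to 0.430). Ccdc186 had 0 rounded counts in every library labelled Cre+ (0.33 before rounding) and 13.1, 3.37 and 6.29 CPM with the label Cre-, which makes it at least 56.2-fold lower when the group's sum is set at 3 counts, the limit that 0 allows. Frmd4b was at least 26.5-fold lower, with 0 and 91 counts over the groups, and Ikzf3, which encodes the transcription factor Aiolos, at least 10.8-fold lower, with 0 and 37 counts, of which none came from replicate 2 of the label Cre-. Arsk, a lysosomal sulfatase, lay the other way, with 3.29, 2.32 and 4.31 CPM with the label Cre+ and 0 counts with the label Cre-, at least 29.4-fold higher. DESeq2 called these 4 genes and edgeR did not, with edgeR adjusted p-values of 0.0960 to 0.617. Gcnt2 and Tmem176b, both lower with the label Cre+ at 11 against 85 and 0 against 26 counts, and the zinc finger gene Zfp35, at 43 against 450 counts, were also called by DESeq2. None of the Tmem176b counts came from replicate 2 of the label Cre-.

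Of the genes that define T helper lineages, few could be bounded closely in Tfh_A. The 95% interval lay within a 2-fold change for 2 of 21 tested genes of the Tfh list, 4 of 17 of the Th17 list and 3 of 16 of the Th1 list. Over all tested genes the share was 17.9%, so that loose bounds were not particular to these lists. Il2ra, whose product raises the affinity of the IL-2 receptor, had 325, 283 and 344 CPM in libraries labelled Cre+, against 311, 296 and 345 CPM in those labelled Cre-, a log2 fold change of 0.0017 ± 0.18 (95% interval -0.36 to 0.36). Its libraries interleaved completely. Irf4, which T helper cells need for several fates, had 186, 216 and 187 CPM with the label Cre+ and 194, 171 and 199 CPM with the label Cre- (0.06, interval -0.40 to 0.53). Ctla4, an inhibitory receptor, was bounded likewise at -0.06 (interval -0.59 to 0.46), and Il17a, the Th17 cytokine, at 0.32 (interval -0.31 to 0.94) with means of 7.64 ± 2.2 and 6.20 ± 1.30 CPM for the labels Cre+ and Cre- (SD, n = 3 each). Il21, a Tfh cytokine and reported c-Maf target, had 35.6, 65.9 and 74.7 CPM with the label Cre+, against 32.9, 60.3 and 37.7 CPM with the label Cre- (0.43 ± 0.28), and the spread within each label was wider than the difference. Pdcd1 (PD-1) averaged 39.5 ± 6.78 and 29.3 ± 13.5 CPM. Batf, a partner of Irf4, averaged 60.5 ± 17.7 CPM against 85.1 ± 7.91 CPM with the label Cre- (-0.49 ± 0.27, edgeR adjusted p = 0.960).

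Bcl6 and Foxp3 had no count in any of the 6 libraries, so 0 counts over each group of 3 allow up to 3 counts and no comparison could be made. Bcl6 was also at 0 CPM in every library of Tfh_1 and Tfh_5, and whether these libraries could detect its RNA was not tested. Cxcr5, the follicle-homing receptor, had 8.04, 3.23 and 2.75 CPM with the label Cre+, against 0, 2.66 and 0.20 CPM with the label Cre- (2.26 ± 1.74). Tbx21, the Th1 regulator, averaged 45.1 ± 16.5 and 61.9 ± 8.87 CPM and Gata3, the Th2 regulator, 12.4 ± 5.93 and 14.6 ± 4.52 CPM, both with overlapping groups. Of 21 tested genes in the Tfh list and 16 in the Th1 list none had an unadjusted p under 0.05, and the medians were 0.06 and 0.07. The Th17 list (17 tested, median 0.32) held 1 such gene on each side (background 2.94% higher and 2.22% lower). These were Ccr6, a homing receptor of Th17 cells, with 53.3, 40.3 and 20.1 CPM against 14.4, 27.0 and 21.4 CPM with the label Cre-, and Il1r1, with 0 counts with the label Cre+ and 48 with the label Cre-, of which none came from replicate 2. In the list of 13 reported c-Maf targets, 9 were tested and none had an unadjusted p under 0.05. Without replicate 4 of the label Cre- 2 did, both higher, beside 292 higher of 12336 tested genes in that fit.

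Genes that passed the threshold in the same direction in both Tfh_1 and Tfh_5 were then read in Tfh_A. They were chosen by the contrasts within Tfh_1 and Tfh_5, though the Tfh_A libraries shared the filter, the normalisation and the estimates of spread with that fit. They are 32 genes higher with the label Cre+ besides Maf, and 25 lower. Of the 32, 19 had the same sign in Tfh_A and 5 of those an unadjusted p under 0.05 (Prnp, Zap70, Npc2, Rgs10 and Tspan32; background 2.94%), with a median log2 fold change of 0.17 in Tfh_A beside 1.70 in Tfh_1 and 1.69 in Tfh_5. Of the 25, 11 had the same sign and 2 of those that unadjusted p (S100a4 and Tmem109; background 2.22%), with a median of 0.06 beside -1.70 and -1.98. Lgals3, Sema4f, AA467197 and Timp1 reached it in the opposite direction, as did Sla among the 32. As for sign, 5795 of all 11735 tested genes were above 0 in Tfh_A and 5839 below 0. For 15 of the 32 and 12 of the 25 the 95% interval in Tfh_A lay within a 2-fold change. That share was 17.9% over all tested genes and 82.1% over those that averaged at least 100 CPM in either group. The chosen genes were not matched to others by level. These genes outside the naming rule (Npc2, Rgs10, Tspan32, Tmem109, Timp1 and Sla) were named after their values were seen.

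The difference between cultures was tested for each gene as the label difference in Tfh_A minus that in the other culture. It passed edgeR's test for 28 genes against Tfh_1 (0.239%; 0.136% positive, 0.102% negative) and 140 against Tfh_5 (1.19%; 0.861% positive, 0.332% negative). Among the genes chosen above it passed for 8 of the 32 and 14 of the 25 against Tfh_1, and for 13 of the 32 and 19 of the 25 against Tfh_5; since the choice used those cultures, these counts are a description. Klf2, a transcription factor that keeps naive T cells recirculating, had 8.22, 27.0 and 17.1 CPM with the label Cre+ in Tfh_A, against 18, 23.0 and 13.2 CPM with the label Cre-. In Tfh_1 it averaged 50.0 ± 10.9 CPM with the label Cre+ and 1.5 ± 1.81 CPM with the label Cre-, and in Tfh_5 47.8 ± 14.7 and 0.0475 ± 0.0823 CPM (SD, n = 3 each). Both tests of the difference passed (edgeR adjusted p = 0.00490 and 4.32e-06). Il24, an IL-10 family cytokine, had 47.7, 22.7 and 46.7 CPM in Tfh_A with the label Cre+ and 48.5, 13.6 and 33.0 CPM with the label Cre-, whereas it averaged 0.369 ± 0.639 against 86.9 ± 19.0 CPM in Tfh_1 and 0.0433 ± 0.0750 against 24.8 ± 14.4 CPM in Tfh_5. Here too both tests passed (edgeR adjusted p = 3.78e-05 and 1.69e-05). Il2ra, level in Tfh_A, was lower with the label Cre+ by 1.24 ± 0.18 in Tfh_1 and 1.68 ± 0.18 in Tfh_5 on the log2 scale, and both differences passed (edgeR adjusted p = 0.0139 and 8.37e-05).

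Further genes of this kind were the transcriptional coactivator gene Pou2af1, with 0.183, 12.1 and 9.94 CPM in Tfh_A with the label Cre+ and 6.88, 14.6 and 10.6 CPM with the label Cre-, and Plekho1, which averaged 30.2 ± 13.3 and 21.7 ± 3.92 CPM. In Tfh_5 their averages were 120.4 ± 5.61 against 3.39 ± 3.45 CPM for Pou2af1 and 231 ± 36.5 against 12.6 ± 9.14 CPM for Plekho1. Lgals3, which encodes galectin-3, had 217, 149 and 89.1 CPM in Tfh_A with the label Cre+ and 120.1, 67.9 and 64.7 CPM with the label Cre-. These libraries overlapped, and the higher average did not pass in Tfh_A (edgeR adjusted p = 0.741). In Tfh_5 Lgals3 was lower with the label Cre+ by 4.5 ± 0.34 on the log2 scale. The test of the difference between these cultures passed (edgeR adjusted p = 3.71e-10), which does not show a reversal of sign. Sema4f, a semaphorin, had 22.1, 14.9 and 8.50 CPM with the label Cre+ in Tfh_A, against 4.32, 6.14 and 7.09 CPM with the label Cre-. This did not pass in Tfh_A either (edgeR adjusted p = 0.383), and Sema4f was lower in Tfh_1 and Tfh_5 (-1.92 and -2.57). Hk2, the hexokinase that starts glycolysis, had 198, 243 and 184 CPM in Tfh_A with the label Cre+ and 230.4, 230.5 and 235 CPM with the label Cre-, and its label difference was higher than that in Tfh_5 by 1.79 ± 0.30 (edgeR adjusted p = 0.000403). For Maf itself neither test of the difference between cultures passed (edgeR adjusted p = 1 against Tfh_1 and 0.571 against Tfh_5). The 2 unnamed identifiers took 19.7% to 33.7% of counts in Tfh_A libraries labelled Cre-, beside 33.1% to 41.1% with that label in Tfh_1 and 36.8% to 43.0% in Tfh_5; the part of this in the differences between cultures was not tested.

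**Figure D5:**
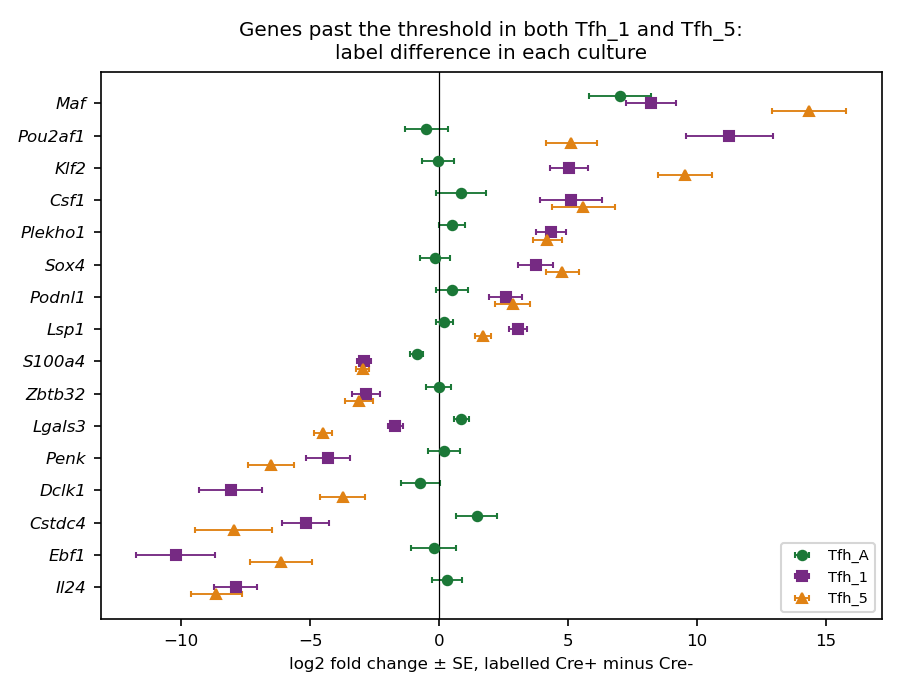
Log2 fold change ± SE, labelled Cre+ minus Cre- (horizontal axis), in Tfh_A, Tfh_1 and Tfh_5 for the 8 genes highest and the 8 lowest on average in Tfh_1 and Tfh_5 among those past the threshold in both (vertical axis). The Tfh_A values of 14 of the 16 genes lie within 1 log2 unit of 0, the exceptions being Maf and Cstdc4 (1.44); values of genes with 0 counts in a group depend on the fit's prior count.

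Markers of other cells were mostly scarce in the Tfh_A libraries, with exceptions given below. Cd8a was at 0 in all 6, Ncr1, Klrb1c and Tyrobp of the NK and innate lymphoid list were at 0 in all 6, as were 6 of 14 myeloid markers (Lyz2 and Adgre1 among them) and 3 of 12 B cell markers (Cd79b, Pax5 and Cd22). The summed B cell list was 115 to 166 CPM with the label Cre+ and 74 to 90.1 CPM with the label Cre-, and most of it was H2-Ab1, an MHC class II gene, with 106, 151 and 79 CPM against 62.8, 61.5 and 42.3 CPM with the label Cre- (1.02 ± 0.32, edgeR adjusted p = 0.676). Ebf1 of the B cell list had 7.12, 14.4 and 23.3 CPM with the label Cre+, against 18.6, 22.6 and 11.2 CPM with the label Cre-. Cd74 of that list had 0, 0.202 and 10.8 CPM against 1.89, 4.70 and 18.5 CPM with the label Cre-. Ms4a1 and Cd79a each had counts in 1 library only, at 4.19 and 0.479 CPM. In the NK and innate lymphoid list Gzma had 0, 5.95 and 12.1 CPM against 19.8, 1.53 and 3.90 CPM with the label Cre-. Klre1 had 1.10, 0 and 0.12 CPM against 8.50, 0.614 and 6.19 CPM. Summed levels were 25.8 to 38.7 CPM with the label Cre+ and 19.4 to 68.7 CPM with the label Cre- for the NK and innate lymphoid list. In the same order of labels they were 0.807 to 6.39 and 0.409 to 3.24 CPM for the myeloid list and 2.19 to 5.39 and 0.205 to 4.5 CPM for the γδ T cell list. They were 1.28 to 6.76 and 0.675 to 5.0 CPM for the CD8 list and 0 to 0.183 and 1.02 to 5.0 CPM for the erythroid list, which rested on Hba-a2 alone. The part of other cells in the results was not tested, and in bulk RNA fewer cells of a type and less RNA per cell cannot be told apart.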

How the data were processed

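Expected counts per gene were deposited by the authors, made with STAR 2.7.2b, featureCounts 1.6.4 and the build mm10, per the submitters' processing notes. Some are fractional, as when a read is shared, so that levels of overlapping, antisense or near-identical genes are uncertain; the planned test assumed whole counts, and values were rounded to whole numbers. The authors' 27179 identifiers were matched to the RefSeq table of GRCm38.p6, which named 25275. Total counts ran from 6424874 to 9236153 in the 6 Tfh_A libraries.

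Groups followed the labels. All 18 libraries entered 1 model of 6 group means in edgeR 4.0.16 (R 4.3.3), with filterByExpr leaving 11735 genes, TMM normalisation, the robust quasi-likelihood test and Benjamini-Hochberg adjustment, read at 0.05. The procedure was tested on simulated counts in which genes were changed only in the Tfh_A libraries labelled Cre+. In these data the other groups differ as well, so the simulation is a check of the code and does not bound what was missed. CPM were computed here from the rounded counts and TMM library sizes, and SE were worked back from the test. Counting intervals and floors of 3 counts cover counting error only, at 95%. Alternatives were DESeq2 1.42.0, limma-voom (limma 3.58.1), RLE factors, no filter, the 6 libraries alone, leaving out the 2 most abundant identifiers, unrounded counts, each library left out, a replicate block for differences between cultures and, added after the data were seen, a transcript length offset.

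Named genes were Maf, a fixed panel, genes called by any tool, the 12 higher and 12 lower non-overlapping genes of at least 10 CPM with the smallest p, the 3 members of each list with the smallest p, the 8 highest and 8 lowest genes called in both Tfh_1 and Tfh_5, and the 4 in each direction with the smallest p for each difference between cultures; others are said to be chosen later. The members and lists were chosen with earlier results of these data known. A few genes are not reported here.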

Additional observations from a re-analysis of the deposited data

Results flagged for a closer look

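The differences between cultures below are on the log2 scale, as the label difference (Cre+ minus Cre-) in Tfh_A minus that in the other culture, and each passed edgeR's test of that difference with Benjamini-Hochberg adjustment over 11735 genes. A positive value means that the label difference was more positive in Tfh_A. Fitted values of genes with 0 counts in a group depend on the prior count.

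Against both cultures, with the value for Tfh_1 first and Tfh_5 after it, the difference was positive for AA467197 (2.41 and 3.13), Cstdc4 (6.63 and 9.42), Ebf1 (9.9998 and 5.91), Il24 (8.19 and 8.95), Il2ra (1.24 and 1.68), Lgals3 (2.55 and 5.35), S100a4 (2.04 and 2.08), S100a6 (1.71 and 2.53) and Sema4f (3.28 and 3.93). It was negative against both for A930005H10Rik (-8.63 and -9.80), Ikzf3 (-7.42 and -7.21), Klf2 (-5.06 and -9.56), Plekho1 (-3.87 and -3.71), Pou2af1 (-11.76 and -5.63), Smap2 (-2.18 and -1.49) and Ssh2 (-1.69 and -1.41). Against Tfh_5 alone it passed on the positive side for Aldoc (1.6), Fdps (1.44), H2-Ab1 (3.12), Hk2 (1.79), Il7r (1.93), Mt1 (2.89), Mt2 (3.36), Ndrg1 (2.77), Penk (6.72), Runx3 (1.33), Tnfrsf9 (1.44) and Zbtb32 (3.10), and on the negative side for Cdk2ap2 (-1.99), Id3 (-3.11), Ifi47 (-1.98), Sox4 (-4.94) and Zfp36l1 (-2.63). Against Tfh_1 alone it passed for Basp1 (2.54), Dclk1 (7.34) and Lsp1 (-2.85). Passing against 1 culture and not the other does not show that the cultures differ. The part of library composition in these values was not tested.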

How the results depend on the processing

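In Tfh_A the count of genes past edgeR's adjusted threshold was 0, and also 0 with the 6 libraries alone, without the 2 most abundant identifiers, with unrounded counts and with the transcript length offset. It was 1 with RLE size factors, 23 with no filter on low counts, 18 with DESeq2 and 6 with limma-voom, and 0 to 4 with each library left out (4 without replicate 3 and 2 without replicate 6 of the label Cre+, 3 without replicate 2 and 1 without replicate 4 of the label Cre-). For the difference from Tfh_1 the count of 28 became 61 with no filter and 63 with DESeq2, and 18 to 27 with each library left out. For the difference from Tfh_5 the count of 140 became 235 with no filter and 255 with DESeq2, and 81 to 164 with each library left out, lowest without Tfh_A replicate 1 of the label Cre+ (81) and replicate 5 of the label Cre- (87). The cause was not tested.

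No paired analysis was possible because the 2 labels share no replicate number within Tfh_A. Between cultures, deviations of same-numbered libraries from their group means correlated at -0.0585 to 0.108. Those of differently numbered libraries correlated at -0.142 to 0.108, so the numbers showed no sign of pairing libraries. A replicate block gave 33 genes for Tfh_1 and 135 for Tfh_5.

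Directions of genes near 0 change were unstable. Il2ra was -0.0094 and Klf2 0.030 in limma-voom, and Zbtb32 was 0.018 with RLE factors, 0.019 in DESeq2 and 0.0012 with the length offset. With each library left out, values ranged from -0.23 to 0.17 for Ctla4, -0.69 to 0.11 for Ebf1, -0.51 to 0.11 for Gata3, -0.041 to 0.74 for Il24, -0.061 to 0.076 for Il2ra, -0.012 to 0.11 for Irf4, -0.51 to 0.29 for Klf2, -0.023 to 0.43 for Lsp1, -0.30 to 0.40 for Penk, -1.04 to 0.038 for Pou2af1, -0.54 to 0.18 for Sox4, -0.20 to 0.079 for Ssh2 and -0.44 to 0.28 for Zbtb32. Medians of several lists moved by over 1.5 times without 1 library. They ranged from 0.15 to 0.35 in the Th17 list, -0.012 to 0.22 in the Tfh list, -0.028 to 0.22 in the Th1 list (lowest without replicate 6 and highest without replicate 3 of the label Cre+), 0.13 to 0.40 in the costimulatory list, -0.34 to -0.18 in the proliferation list and -0.40 to -0.23 in the cholesterol list. Genes under 10 CPM in both groups were loosely bounded, with a median SE of 2.05 on the log2 scale.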
